A study of Homo sapiens with 24 samples.

Results

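Centrosome and centriole genes were followed after ERH ablation in RKO cells, a human colon carcinoma line. The 40 genes were taken by name from a fixed list, with each symbol tied to its Ensembl gene identifier through the intron tables, and were read out of 62754 annotated genes. The cells carried a doxycycline-inducible Cas9 (RKO-iCas9) and either sgERH, a guide against ERH, or sgAAVS1, a guide to the AAVS1 safe harbour locus that served as the negative control. Cas9 was induced in every group with 100 ng/mL doxycycline for 5 days. Cells then received 25 μg/mL cycloheximide (CHX), an inhibitor of translation, or DMSO, its solvent, over 4 h. Mild lysis separated cytoplasm from nuclei, and polyadenylated RNA of each was sequenced. The groups were sgERH CHX, sgAAVS1 CHX, sgERH DMSO and sgAAVS1 DMSO, each as nucleus and as cytoplasm, with 3 libraries per group labelled as biological replicates. ERH is a small nuclear protein linked to pre-mRNA splicing and RNA export, and the comparisons ask how the RNA of these genes changes when it is depleted. The inducible Cas9 cells came from single-cell-derived clones, and the cells that carried a guide were sorted from them as a pool.

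The centrosome is the main microtubule-organising centre of animal cells. It holds a pair of centrioles within a pericentriolar material that nucleates microtubules, and each centriole is copied once per cell cycle under control of the kinase PLK4, its partner STIL and the cartwheel protein SASS6. The mother centriole carries distal and subdistal appendages, can dock at the membrane as the basal body of a cilium, and is surrounded by centriolar satellites scaffolded by PCM1. By these roles the list held 15 genes of centriole duplication and assembly, 7 of the pericentriolar material and centrosome cohesion, 9 of the appendages and anchoring, 7 of satellites, transition zone and axoneme, and the spindle pole and midbody genes ASPM and CEP55.

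Many of the genes have many introns, and some of these were retained in sgERH cells. The shortest of a block of retained introns in ASPM, which encodes a spindle pole protein, and a short retained intron of CEP70 are shown because they give the whole unspliced stretch (GRCh38, both from the minus strand, 5′ to 3′). The capitals mark the first and last intron bases. ASPM intron 14 lies at chr1:197122302-197122387 and CEP70 intron 14 at chr3:138500568-138500734.
ASPM intron 14: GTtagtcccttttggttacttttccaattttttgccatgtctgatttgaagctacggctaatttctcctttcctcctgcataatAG
CEP70 intron 14: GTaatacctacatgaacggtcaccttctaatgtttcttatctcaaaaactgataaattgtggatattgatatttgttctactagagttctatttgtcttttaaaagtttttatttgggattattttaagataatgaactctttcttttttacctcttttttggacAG

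The 5′ splice sites of 6 introns of the ASPM block are given as the last 3 exon bases and the first 6 intron bases, with the invariant GT in capitals, so that neighbouring introns can be compared.
ASPM intron 8, 5′ site: atgGTaagt
ASPM intron 9, 5′ site: aagGTatgc
ASPM intron 10, 5′ site: tgtGTacgt
ASPM intron 12, 5′ site: cagGTatta
ASPM intron 13, 5′ site: aagGTaagt
ASPM intron 14, 5′ site: atgGTtagt
The 3′ splice sites of introns 8, 13 and 14, which were among the most retained, are given as the last 20 intron bases and the first 3 exon bases, with the AG in capitals.
ASPM intron 8, 3′ site: ttttttgtactttatttaAGgtc
ASPM intron 13, 3′ site: tttctggcattttcaatcAGgtg
ASPM intron 14, 3′ site: cctttcctcctgcataatAGaaa

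The libraries held between 27.8 and 79.5 times 1000000 counts over transcripts. ERH itself gave 14.9, 12.5 and 11.3 CPM (counts per 1000000, scaled within each fraction) in sgERH DMSO nuclei, against 16.5, 21.8 and 15.6 CPM in sgAAVS1 DMSO nuclei (log2FC −0.48, SE 0.16, padj 0.0267). In DMSO cytoplasm it gave 72.9, 86.9 and 59.4 CPM with sgERH and 137, 158 and 152 CPM with sgAAVS1 (log2FC −1.03, SE 0.11, padj 1.12e-06), so the ERH mRNA was reduced rather than absent. Under CHX the log2FC of ERH was −0.12 in the nucleus (padj 0.59) and −0.72 in the cytoplasm (padj 6.15e-05). These counts do not measure ERH protein, which the paper reported as effectively depleted by western blot in targeted RKO-iCas9 cells. Epithelial KRT8, KRT18, CDX2 and EPCAM were present. CDH1, KRT19, KRT20 and CDX1 were listed at 0 TPM in control cytoplasm and the leukocyte markers PTPRC, CD3E and CD14 were at 0 there too. CD68, a lysosomal protein on the same leukocyte list, was at 275 TPM there, and ITGAM reached 31.7 TPM in its highest library. The summed leukocyte list was 326 to 429 TPM in sgERH DMSO cytoplasm and 259 to 286 TPM in sgAAVS1 DMSO cytoplasm, and 247 to 366 TPM in sgERH DMSO nuclei and 109 to 181 TPM in sgAAVS1 DMSO nuclei. The summed fibroblast markers were at most 6.16 TPM in any library. Of 32 general cell cycle genes, 32 had a negative log2FC in sgERH DMSO cytoplasm (median −0.88) and 32 in sgERH DMSO nuclei (median −0.52). Mitochondrial mRNAs summed to 87817 to 106014 TPM in sgERH DMSO cytoplasm and 58397 to 66876 TPM in sgAAVS1 DMSO cytoplasm, and to 15183 to 16902 TPM in sgERH DMSO nuclei and 10194 to 12754 TPM in sgAAVS1 DMSO nuclei. The part of these lists in the changes of the centrosome genes was not tested. In bulk RNA, fewer cells in a given phase and less RNA per cell cannot be told apart.

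The centrosome genes were expressed at low to moderate levels. In sgAAVS1 DMSO cytoplasm the median over the genes was 9.87 TPM, a length-corrected level. CEP162, which acts in ciliary axoneme and transition zone assembly, was lowest (2.59, 2.38 and 3.10 TPM) and CEP55, the midbody scaffold of abscission, highest (32.5, 36.8 and 36.3 TPM), beside PCM1 (34.7, 35.3 and 35 TPM). CEP55 and PCM1 did not differ beyond their spread. CEP170, a subdistal appendage protein, gave 0 counts in 23 of the 24 libraries and at most 3 counts in the other. SDCCAG8, the next gene on chromosome 1, was at 0 counts in 24 libraries, whereas EXO1 and ZBTB18 nearby had at least 883 and 369 counts per library. These neighbours were looked at after the values of CEP170 were seen. CEP170 did not pass the filter on low counts, and 39 of the 40 genes were tested in each comparison.

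In DMSO nuclei, sgERH lowered several duplication genes. A gene was called when the Benjamini-Hochberg adjusted p of edgeR's quasi-likelihood test (padj) was at most 0.05 and the log2FC was at least 1 in size. By this rule 3 of the 39 genes were called lower, against 1.73% of all genes tested, and 0 higher, against 4.77%. By padj alone, 21 genes fell and 3 rose (18.2% and 18% of all genes tested), and 31 of the 39 had a negative log2FC. Their median was −0.31, beside 0.03 over all genes. The 3 called genes belonged to duplication and assembly, where 9 of 15 genes fell by padj and the median was −0.31.

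PLK4, the master kinase of centriole duplication, gave 41.1, 44.3 and 46.1 CPM in sgERH nuclei and 89.7, 86.3 and 89.2 CPM in sgAAVS1 nuclei (log2FC −1.01, SE 0.09, padj 1.75e-07). CENPJ, which elongates new centrioles, gave 32.7, 31.5 and 31.1 CPM with sgERH and 67.1, 59.9 and 65.0 CPM with sgAAVS1 (log2FC −1.01, SE 0.09, padj 3.75e-07). CEP78, a centriole wall protein, gave 53.9, 58.1 and 56.5 CPM with sgERH and 121, 115 and 115 CPM with sgAAVS1 (log2FC −1.06, SE 0.07, padj 9.15e-09). The groups did not overlap for any of these 3 genes, and each was near the fold limit. PLK4 left it without sgERH DMSO nucleus replicate 1 (−0.97), and CENPJ left it without sgAAVS1 DMSO nucleus replicate 1 (−0.98) or sgERH DMSO nucleus replicate 3 (−1.0). With transcript lengths as an offset, PLK4 stood at −0.99 and CEP78 at −0.81, and 1 gene was called. The median log2FC of the listed genes was then −0.22, beside 0.04 over all genes.

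The other members of the duplication core moved less. STIL, the PLK4 partner, gave 47.5, 50.2 and 49.0 CPM in sgERH nuclei and 64.2, 63.9 and 65.7 CPM in sgAAVS1 nuclei (log2FC −0.40, padj 0.000678). SASS6 gave 45.8, 51.0 and 58.5 CPM with sgERH and 83.6, 85.8 and 84.7 CPM with sgAAVS1 (log2FC −0.71, padj 9.96e-05). Both sets were lower without overlap, though short of the fold limit. PCNT, the large pericentriolar scaffold, gave 268, 255 and 259 CPM with sgERH and 347, 341 and 346 CPM with sgAAVS1 (log2FC −0.40, padj 0.00206). PCM1 gave 161, 155 and 158 CPM with sgERH and 202, 192 and 166 CPM with sgAAVS1, where one control library lay close to the sgERH libraries (log2FC −0.24, padj 0.0258). The genes that rose by padj were CEP250 (0.34), CEP120 (0.30) and OFD1 (0.22), all small in fold.

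In DMSO cytoplasm, LRRCC1, a centriolar protein needed for distal appendage and cilium assembly, fell further than the other 38 genes tested, and CEP164, a distal appendage protein needed for ciliogenesis, rose. LRRCC1 gave 13.7, 11.3 and 15 CPM with sgERH and 59.6, 57.4 and 53.5 CPM with sgAAVS1 (log2FC −2.09, SE 0.09, padj 3.10e-11). CEP164 gave 33.9, 32.8 and 32.5 CPM with sgERH and 13.5, 11.5 and 13.3 CPM with sgAAVS1 (log2FC 1.37, SE 0.08, padj 1.49e-09). In neither gene did the groups overlap. These were the 1 gene called lower and the 1 called higher, against 2.16% and 9.30% of all genes tested. By padj alone 23 genes fell and 8 rose (28.7% and 28.4% of all genes), 26 had a negative log2FC, and the median was −0.30, beside 0.04 over all genes. The mitochondrial mRNAs, which share the same total, moved the other way, with a median log2FC of 0.43 over 8 genes. Nuclear marker RNAs, MALAT1 and NEAT1 among them, summed to 278 to 357 TPM in sgERH DMSO cytoplasm and 171 TPM in sgAAVS1 DMSO cytoplasm. CEP164 had the largest nuclear excess of the genes tested, as given below, and the part of nuclear RNA in its cytoplasmic rise was not tested.

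Of the duplication genes, 10 of 15 fell by padj in the cytoplasm, 3 rose and 0 were called. PLK4, STIL, SASS6, CENPJ, CEP192, CEP63, CEP78 and CEP85 fell by padj in both fractions, whereas CEP295 fell in the nucleus (log2FC −0.31) and rose in the cytoplasm. PLK4 gave 35.8, 35.5 and 36.1 CPM with sgERH and 68.7, 68.1 and 64.5 CPM with sgAAVS1 (log2FC −0.91, SE 0.05). CENPJ was at −0.80, SASS6 at −0.59 and STIL at −0.51, each with padj of at most 2.70e-05. The 3 duplication genes that rose were CEP295 (0.47), CEP44 (0.28) and CEP152 (0.27). Of the satellite and transition zone genes, 5 of 7 fell and 0 rose by padj. PCM1 gave 107, 98.3 and 95.3 CPM with sgERH and 205, 201 and 185 CPM with sgAAVS1 (log2FC −0.97, SE 0.06, padj 1.12e-09), and without sgERH DMSO cytoplasm replicate 1 it passed the fold limit at −1.03, which made 2 genes called lower. CEP290, a gatekeeper of the ciliary transition zone that was chosen after its values were seen, gave 29.5, 26.4 and 31.8 CPM with sgERH and 53.2, 54.4 and 52.5 CPM with sgAAVS1 (log2FC −0.87, padj 1.59e-08). In the pericentriolar group 3 of 7 fell, PCNT among them (log2FC −0.50, padj 0.000105), and 2 rose.

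**Figure D1:**
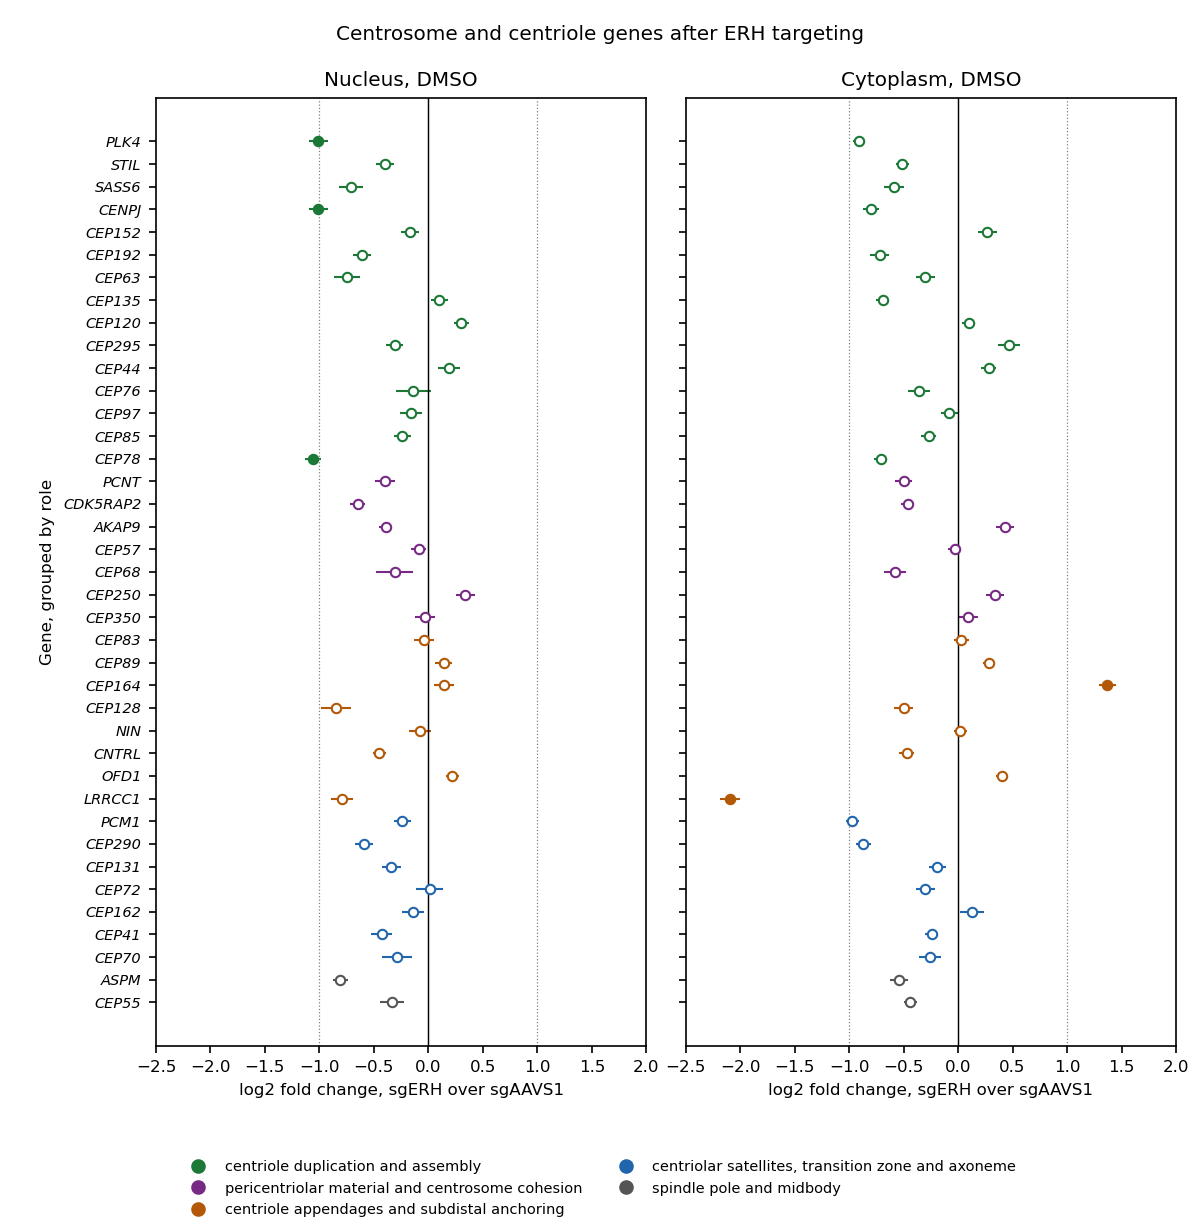
Log2 fold change, sgERH over sgAAVS1, with its standard error, for the 39 tested genes in DMSO nucleus (left) and DMSO cytoplasm (right), with colours for roles, filled points for called genes and dotted lines at log2FC −1 and 1. Most points lie left of 0 in both panels (31 in the nucleus and 26 in the cytoplasm), with LRRCC1 at −2.09 and CEP164 at 1.37 farthest out in the cytoplasm.

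LRRCC1 and CEP164 also differed in their ERH effect between the fractions. LRRCC1 in the nucleus gave 25.3, 23.8 and 29.1 CPM with sgERH and 44.9, 47.2 and 43.2 CPM with sgAAVS1, a smaller fall (log2FC −0.79) than in the cytoplasm. CEP164 in the nucleus gave 228, 224 and 227 CPM with sgERH and 202, 201 and 212 CPM with sgAAVS1, a difference that did not pass the test (log2FC 0.14, padj 0.267). Tested directly, the ERH effect in the nucleus minus that in the cytoplasm was 1.32 for LRRCC1 (SE 0.14, padj 2.72e-06) and −1.22 for CEP164 (SE 0.08, padj 1.92e-08). These were the only 2 of the 39 genes called in that interaction, 1 in each direction, against 1.78% of all genes called higher and 3.95% called lower. By padj alone 4 genes had a positive and 6 a negative difference (18.2% and 14.5% of all genes). CEP135 (0.81) and PCM1 (0.75) followed LRRCC1, and AKAP9 (−0.81) and CEP295 (−0.77) followed CEP164, all by padj only. The part of nuclear RNA in the cytoplasmic libraries was not tested for these differences.

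**Figure D2:**
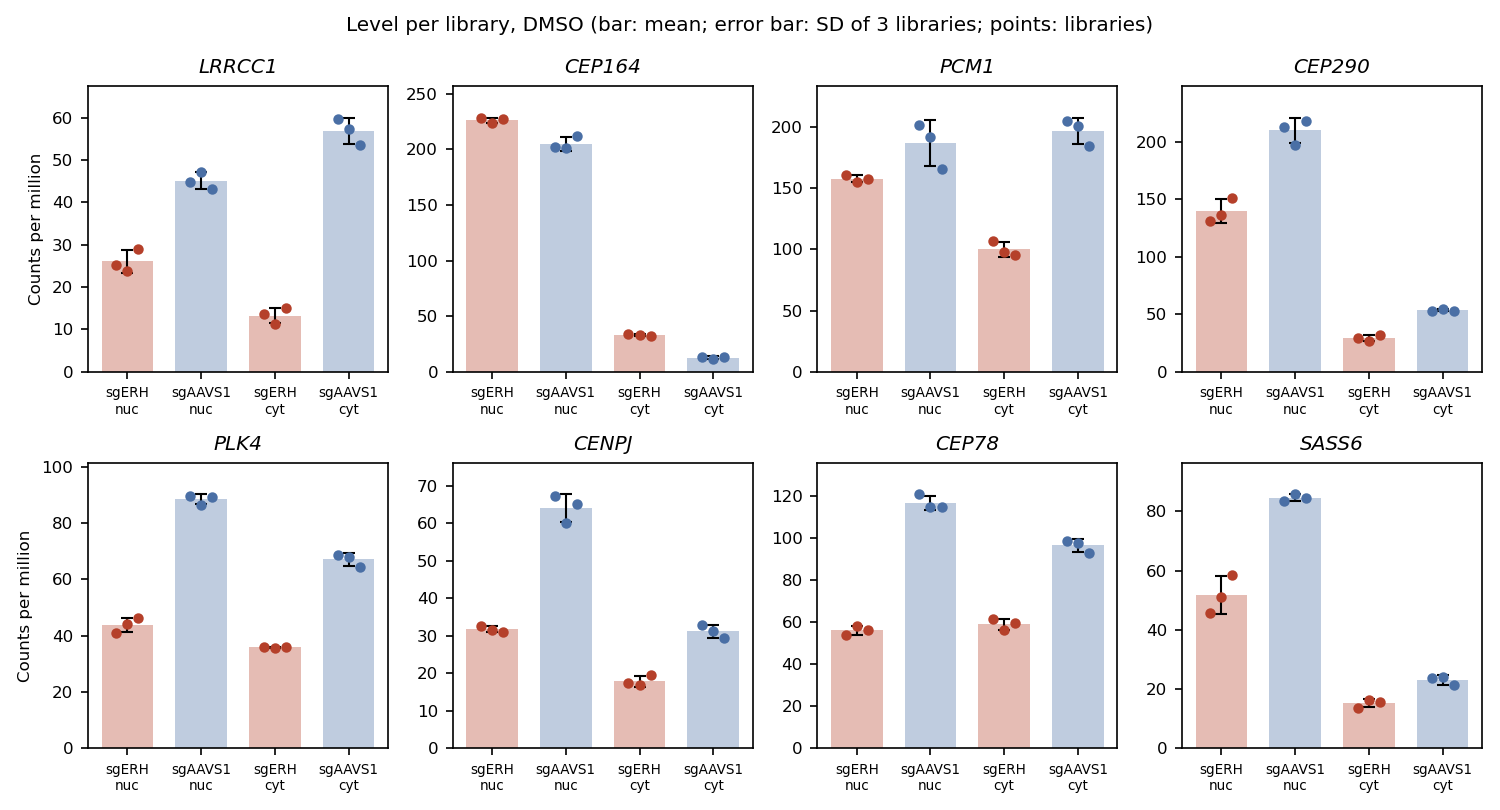
Counts per 1000000 (CPM, scaled within each fraction) per library for 8 genes, with sgERH left of sgAAVS1 in nucleus (nuc) and then cytoplasm (cyt), DMSO. Bars are means, error bars the SD of 3 libraries and points the libraries. The sgERH points lie below the sgAAVS1 points in both fractions for all but CEP164, which is higher in sgERH cytoplasm (32.5 to 33.9 CPM, against 11.5 to 13.5 CPM).

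A wider list of 60 other centrosome and cilium base genes, compiled for comparison, showed the same direction. In DMSO cytoplasm 41 fell and 8 rose by padj (28.7% and 28.4% of all genes), 5 were called lower and 1 higher (2.16% and 9.30%), and the median log2FC was −0.40. HAUS7, an augmin subunit, gave 9.76, 9.50 and 7.96 CPM with sgERH and 25.7, 23.5 and 22.1 CPM with sgAAVS1 (log2FC −1.39). TACC3, which stabilises spindle microtubules, gave 67.7, 65.0 and 74.2 CPM with sgERH and 168, 156 and 159 CPM with sgAAVS1 (log2FC −1.22). The groups were separate in both genes, as they were for the centriole gene POC1A (log2FC −1.25). The gene called higher was TUBG2, a gamma-tubulin, at 18.5, 17.4 and 17.3 CPM with sgERH and 8.63, 7.04 and 9.11 CPM with sgAAVS1 (log2FC 1.11). TUBG2 was also relatively higher in the nucleus than in the cytoplasm of sgAAVS1 DMSO cells (log2FC 2.38), and the part of nuclear RNA in its rise was not tested. In DMSO nuclei 29 of the 60 fell and 2 rose by padj (18.2% and 18% of all genes). The only gene called there was CCDC14, a satellite protein, which was lower. Of all genes tested, 1.73% were called lower and 4.77% higher. CCDC14 gave 465, 490 and 491 CPM with sgERH and 1018, 961 and 1018 CPM with sgAAVS1 (log2FC −1.05).

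Intron retention (IR) was read as the IR ratio, the share of intron depth in the total of that depth and the reads spliced across the intron (0 to 1). An intron was called when the ratio of intron depth to spliced reads changed with padj of at most 0.05 and log2FC of at least 1 in size, and the IR ratio averaged 0.05 or more in whichever group retained it more. In DMSO nuclei, 904 introns of the 39 genes were tested. Of these 35 introns in 13 genes were called more retained in sgERH (3.87%, against 1.21% of all introns tested), and 14 in 9 genes less retained (1.55%, against 3.44%). The median log2FC was −0.10 over the introns of these genes and −0.38 over all introns. The sgERH nuclei as a whole held fewer boundary-spanning reads, 32.3 to 32.4 per 100 spliced reads with sgERH and 38.8 to 40.7 with sgAAVS1, and the part of this difference in the lower calls was not tested. Once intron depth was scaled to each library's median, an alternative added after the data were seen, 44 introns were called higher and 6 lower. Over all 125590 introns tested, that scaling gave 2124 higher and 1052 lower, beside 1514 and 4324 unscaled. For the introns of these genes at unscaled depth, leaving out 1 sgAAVS1 library in turn gave 20, 20 and 18 higher calls and 5, 9 and 9 lower. Leaving out 1 sgERH library gave 23, 22 and 19 higher and 8, 9 and 9 lower.

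The called introns were poor in G and C. The median GC content was 33.1% in the introns called more retained, 36.8% in those called less retained, 38.4% over the tested introns of these genes and 44.1% over all tested introns. Introns called more retained across all genes had a median of 35.5%. The median length was 1516 bases for the 35 introns called more retained, 1642 bases for the tested introns of the list and 1624 bases for all tested introns. Introns called more retained across all genes were shorter, with a median of 1158 bases.

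**Figure D3:**
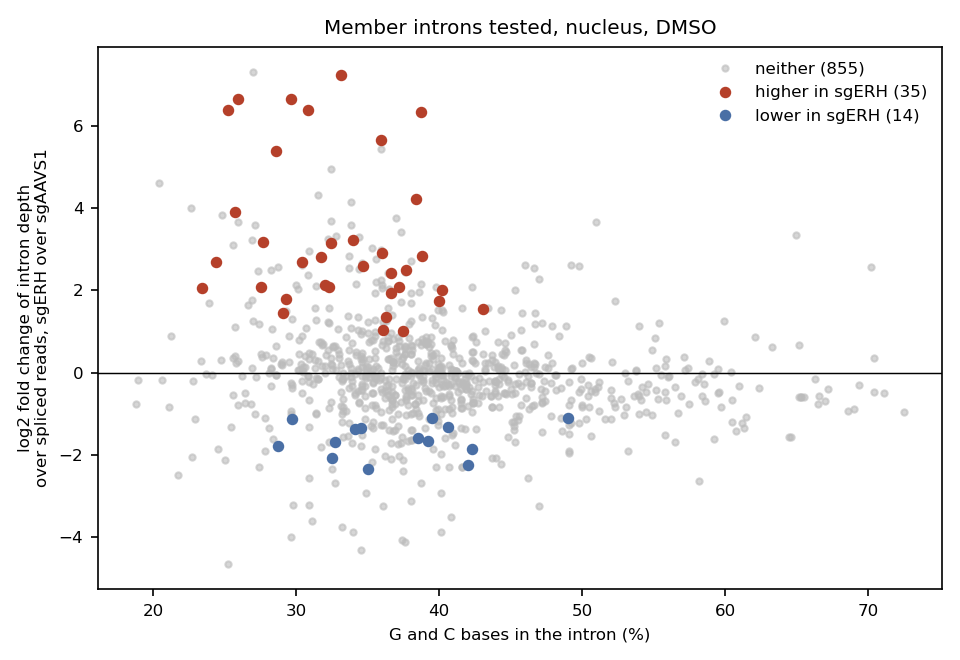
Log2 fold change of intron depth over spliced reads (sgERH over sgAAVS1, DMSO nucleus) against GC content, with 1 point per tested intron of the listed genes. Introns called higher in sgERH (35) lie mainly to the left, with a median GC of 33.1%, beside 38.4% over the 904 introns tested.

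ASPM held a run of retained introns in the middle of the gene. In intron 14, IR ratios were 0.449, 0.588 and 0.577 in sgERH nuclei and 0.0603, 0.0656 and 0.0439 in sgAAVS1 nuclei, which left 80, 50 and 68 spliced reads with sgERH and 153, 109 and 109 with sgAAVS1 (log2FC 4.21, SE 0.44, padj 4.15e-05). In intron 13 the ratios were 0.417, 0.551 and 0.495 with sgERH and 0, 0.0171 and 0.00372 with sgAAVS1 (padj 1.21e-05). In intron 15 they were 0.470, 0.490 and 0.516 with sgERH and 0, 0.0174 and 0.0138 with sgAAVS1 (padj 1.46e-06). In each of these introns the sgERH libraries lay far above the control libraries.

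The run extended upstream. Intron 8 had IR ratios of 0.571, 0.445 and 0.568 with sgERH and 0.0344, 0.0240 and 0.00368 with sgAAVS1 (padj 0.000229), and intron 9 had 0.5, 0.467 and 0.457 with sgERH and 0.0843, 0.0572 and 0.0213 with sgAAVS1 (log2FC 3.91, SE 0.46, padj 0.000114). Introns 10 and 12 were called at lower means (0.143 with sgERH, against 0.0407 with sgAAVS1, and 0.198 against 0.00553). Intron 11 was retained in both groups, at 0.618, 0.338 and 0.331 with sgERH and 0.324, 0.211 and 0.134 with sgAAVS1, and was not called. The flanking introns were spliced. Intron 7 was at 0 in each sgERH nuclear library, and intron 16 reached at most 0.0109 in sgERH nuclei and 0.00731 in sgAAVS1 nuclei. Farther down, intron 25 was called at 0.124, 0.101 and 0.133 with sgERH and 0.0407, 0.0387 and 0.0354 with sgAAVS1 (log2FC 1.78, SE 0.30, padj 0.00218). The ASPM level in nuclei was lower too, at 216, 223 and 224 CPM with sgERH and 417, 384 and 361 CPM with sgAAVS1 (log2FC −0.81, padj 1.75e-07).

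**Figure D4:**
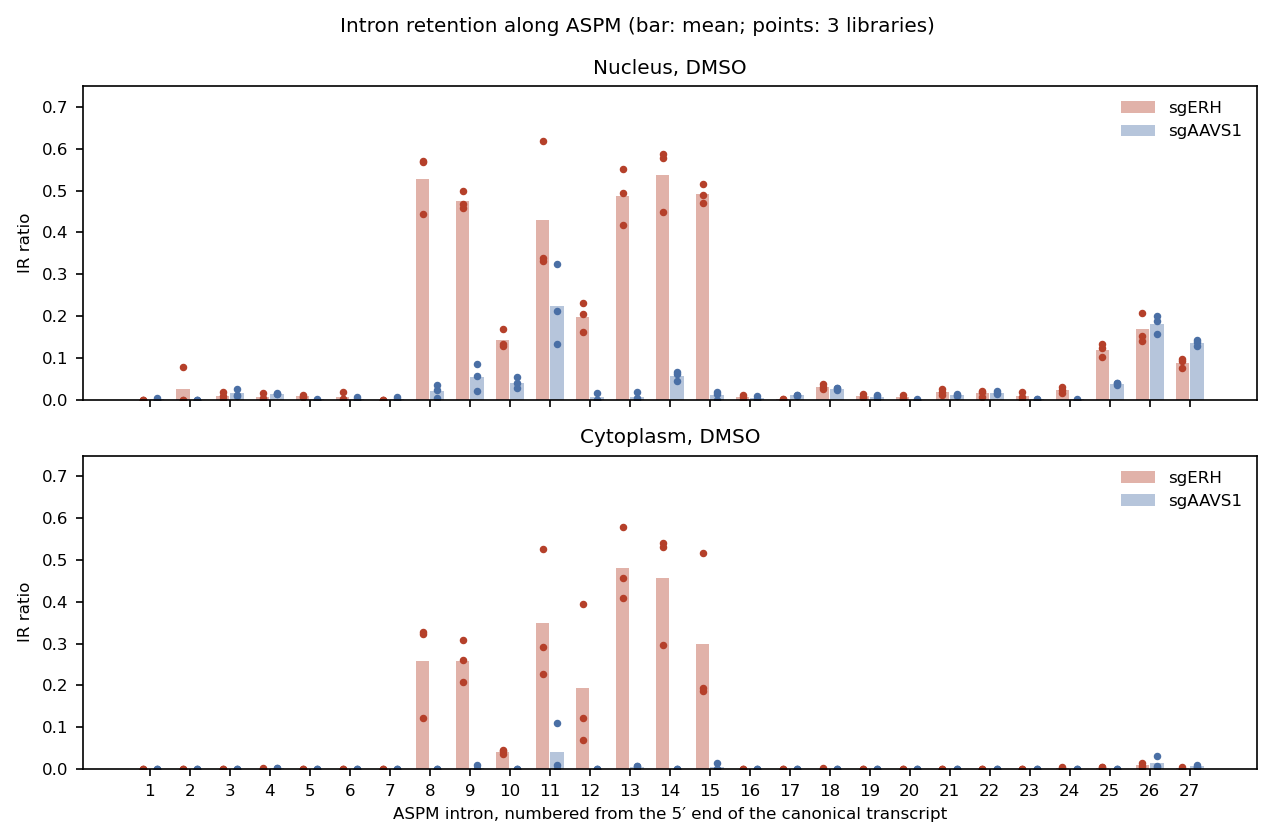
IR ratio of each of the 27 ASPM introns in DMSO nucleus (top) and DMSO cytoplasm (bottom), with bars for the mean, points for the 3 libraries, and sgERH left of sgAAVS1. Introns 8 to 15 are higher with sgERH on average in both fractions, whereas introns 7 and 16 on their flanks stay near 0 (at most 0.0109 in any library).

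Other genes carried 1 to 4 such introns. PCM1 intron 30 of 38 had IR ratios of 0.448, 0.449 and 0.408 in sgERH nuclei and 0.0828, 0.0822 and 0.114 in sgAAVS1 nuclei (log2FC 2.91, SE 0.21, padj 1.25e-06). CEP135 intron 15 of 25, in a gene for a centriole scaffold protein, had 0.271, 0.224 and 0.251 with sgERH and 0.0329, 0.0342 and 0.0685 with sgAAVS1 (log2FC 2.84, SE 0.40, padj 0.000557). LRRCC1 intron 6 of 18 had 0.202, 0.324 and 0.220 with sgERH and 0.0353, 0.0283 and 0.0371 with sgAAVS1 (log2FC 3.22, SE 0.53, padj 0.00180). In each of these introns the lowest sgERH library was above the highest control library. LRRCC1 introns 7, 12 and 16, CEP135 introns 11 and 14, and CEP44 introns 3, 4 and 5 were called alongside.

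CEP290 intron 12 of 53 gave 0.181, 0.180 and 0.214 in sgERH nuclei and 0, 0 and 0.00547 in sgAAVS1 nuclei (padj 0.00253). Its neighbour intron 11 was less even, at 0.506, 0.0561 and 0.0928 with sgERH and 0, 0.00412 and 0.00642 with sgAAVS1 (padj 0.0354). That call was lost without sgERH DMSO nucleus replicate 1 (padj 0.0693) or replicate 3 (padj 0.0601), and without sgAAVS1 DMSO nucleus replicate 1 (padj 0.119), 2 (padj 0.0759) or 3 (padj 0.0802). CEP70 intron 14, whose sequence is given above, had 0.301, 0.533 and 0.374 with sgERH and 0.0605, 0.183 and 0.187 with sgAAVS1 (log2FC 2.07, SE 0.50, padj 0.0190). CEP70 intron 15 was at 0, 0.233 and 0.187 with sgERH and listed at 0 in the 3 sgAAVS1 libraries (padj 0.0165). It passed with 1 sgERH library at 0 as well, and the call was lost when sgERH replicate 2 (padj 0.0562) or 3 (padj 0.0555), or sgAAVS1 replicate 1 (padj 0.0578) or 3 (padj 0.0545), was left out. CEP192 intron 31 of 44, in the gene for a recruiter of PLK4, was a marginal call at 0.0767, 0.0497 and 0.0505 with sgERH and 0.0180, 0 and 0 with sgAAVS1 (padj 0.0256). Leaving out 1 library in turn took it past the limit for sgERH replicates 1, 2 and 3 (padj 0.0803, 0.054 and 0.0504) and sgAAVS1 replicates 2 and 3 (padj 0.0946 and 0.0975).

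The 14 less retained introns lay in CEP41, CEP44, CEP120, CEP152, CEP192, CEP250, CEP290, OFD1 and PCM1, with at most 3 in a gene. CEP44 intron 11, the last of 11, had IR ratios of 0.503, 0.454 and 0.471 in sgERH nuclei and 0.770, 0.704 and 0.797 in sgAAVS1 nuclei (log2FC −1.79, SE 0.26, padj 0.00073), in the same gene whose introns 3 to 5 were more retained. OFD1 intron 21 of 22, in the gene for a centriole length regulator, had 0.0175, 0.0282 and 0.0226 with sgERH and 0.0799, 0.0581 and 0.0654 with sgAAVS1 (log2FC −1.69, padj 0.00493). The groups were separate in both, and the OFD1 call was lost after scaling to the library median (log2FC −1.37, padj 0.0502). CEP41 intron 9 had 0.0823, 0.109 and 0.126 with sgERH and 0.371, 0.294 and 0.230 with sgAAVS1 (log2FC −1.85, padj 0.0271), and an intron of the same gene outside the canonical transcript was called with it. Leaving out sgAAVS1 replicate 1 or 2 or any sgERH replicate lost the call of intron 9, with padj of 0.066 to 0.118, and so did scaling to the library median (padj 0.0618). CEP152 intron 13 (log2FC −2.36, padj 0.0267) and CEP192 intron 41 (log2FC −2.08, padj 0.00649) had mean IR ratios of 0.0124 and 0.0163 with sgERH and 0.0696 and 0.0635 with sgAAVS1, and the CEP192 call was lost without sgAAVS1 replicate 1 (padj 0.0539). The CEP152 call was lost without sgAAVS1 replicate 1 (padj 0.0711) or 2 (padj 0.102) or sgERH replicate 1 (padj 0.0681) or 3 (padj 0.0869), and after scaling (padj 0.0629).

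Retained introns were also measured in DMSO cytoplasm. Of 270 tested introns, 19 in 8 genes were called higher (7.04%, against 1.49% of all introns) and 1 lower (0.37%, against 0.394%). The median log2FC was 0.87, beside 0.54 over all introns. After scaling to the library median, 13 were called higher and 4 lower. Over all 49272 introns tested, that scaling gave 354 higher and 543 lower, beside 734 and 194 unscaled. The summed level of nuclear marker RNAs was 278 to 357 TPM in sgERH cytoplasm and 171 TPM in sgAAVS1 cytoplasm, and the part of nuclear RNA in these values was not tested. ASPM intron 13 had IR ratios of 0.580, 0.456 and 0.409 with sgERH and 0.00686, 0.00720 and 0 with sgAAVS1 (padj 4.02e-05). ASPM intron 14 had 0.297, 0.541 and 0.532 with sgERH and was listed at 0 in the 3 sgAAVS1 libraries (padj 0.000507), on 47, 15 and 25 spliced reads with sgERH. Introns 8, 9, 11, 12 and 15 of ASPM were called as well, whereas intron 25 had a mean of 0.00315 with sgERH. The call of intron 12 (0.123, 0.394 and 0.0691 with sgERH, 0 in the sgAAVS1 libraries, padj 0.0341) was lost with the replicate number as a block (padj 0.058), without sgERH replicate 1 (padj 0.0665) or 2 (padj 0.0724), and without sgAAVS1 replicate 1 (padj 0.0843), 2 (padj 0.0736) or 3 (padj 0.0704).

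LRRCC1 intron 16 had IR ratios of 0.0577, 0.0695 and 0.0863 in sgERH cytoplasm and was listed at 0 in the sgAAVS1 libraries (padj 7.32e-05). LRRCC1 intron 12 had 0.0678, 0.121 and 0.0691 with sgERH and 0.00191, 0.00176 and 0.00128 with sgAAVS1 (padj 8.02e-05). CNTRL intron 7 of 43, in the gene for centriolin, had 0.319, 0.285 and 0.321 with sgERH and 0.0217, 0.0393 and 0.0274 with sgAAVS1 (log2FC 3.88, SE 0.47, padj 0.000216). Nuclear values of that CNTRL intron were 0.308, 0.368 and 0.411 with sgERH and 0.160, 0.152 and 0.120 with sgAAVS1 (log2FC 1.74, padj 0.0163), so the control libraries held more of the unspliced form in nuclei than in cytoplasm. LRRCC1 intron 5 was at 0.0930, 0 and 0.127 with sgERH and listed at 0 with sgAAVS1 (padj 0.0221), and lost its call without sgERH replicate 1 (padj 0.076) or 3 (padj 0.14) or sgAAVS1 replicate 1 (padj 0.058) or 2 (padj 0.0561). The 1 intron called lower lay in STIL, outside its canonical introns (0.770, 0.815 and 0.691 with sgERH, 0.921, 0.889 and 0.863 with sgAAVS1, padj 0.0339), and with the block 2 introns were called lower. It lost its call without sgERH replicate 1 (padj 0.0761) or 3 (padj 0.185) or sgAAVS1 replicate 1 (padj 0.134) or 2 (padj 0.0841).

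Levels were compared between genes with and without an intron called more retained in the same libraries. Among the 13 genes with an intron called higher in sgERH DMSO nuclei, the median log2FC of the level was −0.29 in DMSO nuclei and −0.47 in DMSO cytoplasm, with 10 of 13 below 0 in the cytoplasm. The other 26 genes had medians of −0.31 in nuclei and −0.26 in cytoplasm, with 16 of 26 below 0. PLK4, CENPJ and CEP78, the 3 genes called lower in nuclei, held no intron called more retained there. LRRCC1, called lower in cytoplasm, held such introns. The part of intron retention in these levels was not tested.

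The share of a gene's reads that salmon assigned to protein-coding transcripts gave a second view of RNA composition, and is an estimate over overlapping transcripts. These genes were chosen after the values were seen. For CEP290 in DMSO cytoplasm this share was 25.6%, 10.6% and 24.1% with sgERH and 65.5%, 56.3% and 55.3% with sgAAVS1. For CEP135 in DMSO nuclei it was 37.3%, 35.6% and 36.4% with sgERH and 58.8%, 60.3% and 58.7% with sgAAVS1. The groups were separate in both. The median share over the 39 genes was 66.2% with sgERH and 67.6% with sgAAVS1 in DMSO nuclei, and 86.9% with sgERH and 90.4% with sgAAVS1 in DMSO cytoplasm. Under CHX it was 65.0% with sgERH and 57.4% with sgAAVS1 in nuclei, the opposite direction, and 85.5% with sgERH and 86.5% with sgAAVS1 in cytoplasm.

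Under CHX, the ERH effect on nuclear levels leaned further down. In CHX nuclei 29 of the 39 genes fell and 2 rose by padj (23.1% and 21.7% of all genes), 36 had a negative log2FC and the median was −0.43, beside 0.01 over all genes. By the full rule 3 genes were called lower (3.68% of all genes tested) and 1 higher (5.29%). LRRCC1 gave 26.5, 32.8 and 28.1 CPM with sgERH and 75.5, 78.2 and 83.4 CPM with sgAAVS1 (log2FC −1.44, SE 0.10, padj 8.55e-09). CEP135 gave 213, 258 and 248 CPM with sgERH and 507, 480 and 496 CPM with sgAAVS1 (log2FC −1.04, SE 0.08, padj 2.30e-08). CDK5RAP2, which anchors gamma-tubulin complexes, gave 308, 274 and 303 CPM with sgERH and 635, 570 and 594 CPM with sgAAVS1 (log2FC −1.02, SE 0.07, padj 8.24e-09). None of these overlapped between groups, but CEP135 left the fold limit without sgERH CHX nucleus replicate 1 (−0.96), and CDK5RAP2 without sgERH CHX nucleus replicate 2 (−0.97) or sgAAVS1 CHX nucleus replicate 1 (−0.98). Without sgERH CHX nucleus replicate 3 or sgAAVS1 CHX nucleus replicate 2, 5 genes were called lower. NIN, the subdistal appendage protein ninein, was the gene called higher, at 89.2, 94.9 and 73.1 CPM with sgERH and 39.1, 37.3 and 43.7 CPM with sgAAVS1 (log2FC 1.10, SE 0.10, padj 1.70e-07). With the length offset NIN stood at 0.88, CEP135 at −0.91 and CDK5RAP2 at −0.83, while CENPJ passed the fold limit at −1.26 (padj 4.62e-06), and 4 genes were called lower.

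In CHX cytoplasm 25 genes fell and 4 rose by padj (24.7% and 25.3% of all genes) and the median was −0.33, beside 0.02 over all genes. LRRCC1 was the gene called lower (1.43% of all genes tested), at 20.3, 23.2 and 22.7 CPM with sgERH and 62.8, 57.8 and 61.7 CPM with sgAAVS1 (log2FC −1.46, SE 0.08). CEP250, which encodes the centriole linker protein C-Nap1, was the gene called higher (5.79%), at 127, 113 and 148 CPM with sgERH and 43.8, 44.2 and 46.9 CPM with sgAAVS1 (log2FC 1.52, SE 0.09, padj 1.47e-09). Neither gene overlapped between groups. ASPM was at −0.99, and without sgERH CHX cytoplasm replicate 1 (−1.05) or sgAAVS1 CHX cytoplasm replicate 2 (−1.03) it was called lower as well.

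For 4 genes the ERH effect differed between CHX and DMSO beyond the fold limit. CEP250 cytoplasm had 166, 146 and 175 CPM in sgERH DMSO and 135, 120 and 130 CPM in sgAAVS1 DMSO, so the difference of effects was 1.19 (SE 0.12, padj 2.89e-06), 1.02% of all genes being called higher in this test. CEP295, a centriole-to-centrosome conversion protein, had 108, 77.6 and 104 CPM in sgERH CHX cytoplasm and 148, 145 and 154 CPM in sgAAVS1 CHX cytoplasm. In DMSO it had 32.4, 28.7 and 35.1 CPM with sgERH and 23.3, 24.2 and 21.9 CPM with sgAAVS1, so the direction turned (difference −1.10, SE 0.14, padj 3.19e-05, with 2.61% of all genes called lower). That call was lost without sgERH CHX cytoplasm replicate 2 (−0.96), and 2 genes were called lower without sgERH CHX cytoplasm replicate 3 or sgAAVS1 DMSO cytoplasm replicate 1. In nuclei NIN (1.18, SE 0.14, padj 2.28e-05) and CEP135 (−1.14, SE 0.11, padj 4.59e-06) were called, beside 1.29% of all genes higher and 2.33% lower. NIN had 143, 146 and 125 CPM in sgERH DMSO nuclei and 155, 145 and 138 CPM in sgAAVS1 DMSO nuclei, which overlapped, and CEP135 had 69.2, 80.2 and 76.7 CPM in sgERH DMSO nuclei and 70.7, 69.9 and 70.7 CPM in sgAAVS1 DMSO nuclei. By padj alone, 9 differences were positive and 8 negative in cytoplasm (14.8% and 11.1% of all genes), and 3 positive and 10 negative in nuclei (8.86% and 10.9%). These differences use the same DMSO libraries as the comparisons above.

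**Figure D5:**
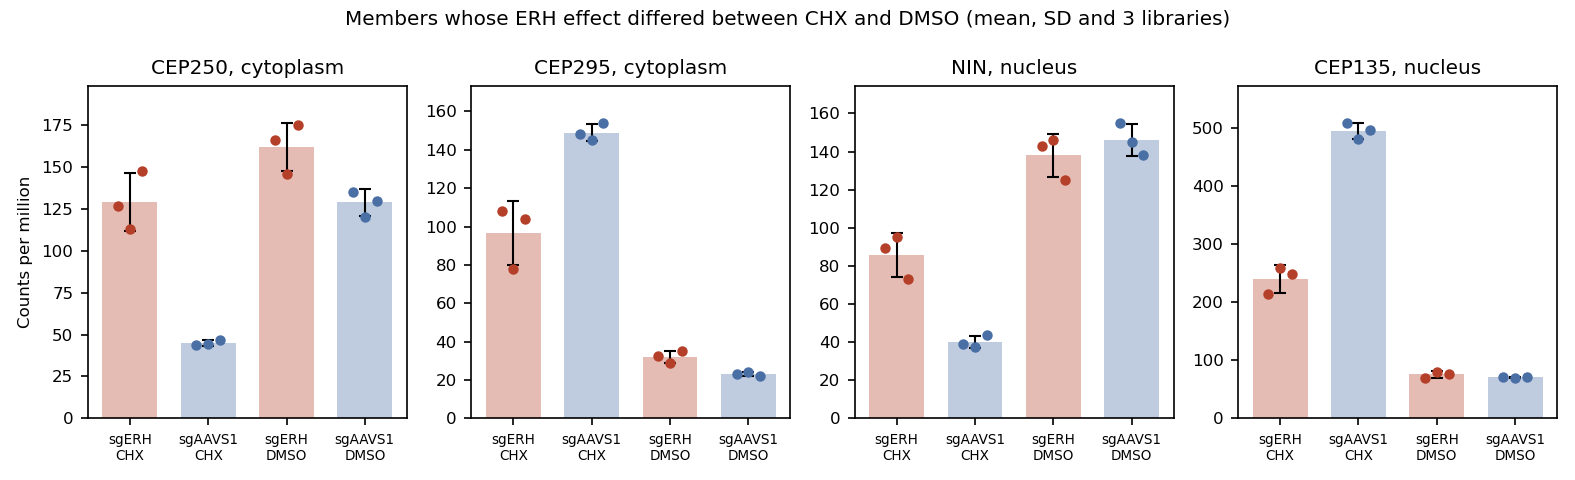
CPM per library of CEP250 and CEP295 in cytoplasm and NIN and CEP135 in nucleus, with sgERH left of sgAAVS1 under CHX and then DMSO. Bars are means, error bars the SD of 3 libraries. Under CHX, CEP250 and NIN lie higher with sgERH and CEP295 and CEP135 lower, while the DMSO pairs lie closer together.

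CHX changed these genes in the control cells too. In sgAAVS1 cells it raised CEP135 in nuclei (log2FC 2.81, SE 0.08, padj 3.06e-14), CEP192 in nuclei (1.5) and CEP63, which helps recruit CEP152, in nuclei (1.36), and in the cytoplasm it raised CEP295 (2.69, SE 0.10, padj 1.47e-12), the anchoring protein AKAP9 (1.69) and CEP164 (1.37). It lowered NIN (−1.87 in nuclei and −1.12 in cytoplasm) and CEP250 in cytoplasm (−1.52). In sgERH cells the same treatment gave 1.67 for CEP135, 1.12 for CEP192 and 1.12 for CEP63 in nuclei, and 1.59 for CEP295, 1.10 for AKAP9 and 1.05 for CEP192 in cytoplasm. CEP63 left the limit without sgERH CHX nucleus replicate 3 (0.97) and CEP192 in cytoplasm without sgERH CHX cytoplasm replicate 1 (0.99). AKAP9 in sgERH cytoplasm left it with transcript lengths as an offset (0.94). In all, CHX in sgERH cells called 3 genes higher and 0 lower in each fraction (8.52% and 6.29% of all genes in nuclei, 7.15% and 1.88% in cytoplasm). In sgAAVS1 cells CHX called 8 higher and 1 lower in nuclei (14.4% and 10.8%) and 7 higher and 2 lower in cytoplasm (13.6% and 6.31%). By padj alone, CHX raised 20 and lowered 7 of the 39 genes in sgERH nuclei (23% and 25.4% of all genes) and raised 26 and lowered 4 in sgERH cytoplasm (25.5% and 27%). In sgAAVS1 cells it raised 24 and lowered 6 in nuclei (29.4% and 29.2%) and raised 25 and lowered 7 in cytoplasm (30.9% and 34.2%).

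Under CHX some introns were called again and others were not. Genes with an intron called higher in nuclei numbered 9 under CHX and 13 in DMSO. The share of all introns called higher was 0.747% under CHX and 1.21% in DMSO. After scaling to the library median, more introns of the listed genes were called higher under CHX than in DMSO. PCM1 intron 30 had IR ratios of 0.360, 0.318 and 0.350 in sgERH CHX nuclei and 0.333, 0.317 and 0.343 in sgAAVS1 CHX nuclei, and LRRCC1 intron 6 had 0.307, 0.115 and 0.148 with sgERH and 0.115, 0.108 and 0.156 with sgAAVS1. The groups overlapped in both, and neither was called. AKAP9, CEP57, CEP83 and PCM1 held no intron called higher in CHX nuclei. In CHX nuclei ASPM intron 15 had IR ratios of 0.703, 0.700 and 0.682 with sgERH and 0.189, 0.266 and 0.253 with sgAAVS1 (log2FC 2.88, SE 0.30, padj 2.39e-05), and intron 14 had 0.703, 0.586 and 0.660 with sgERH and 0.393, 0.198 and 0.417 with sgAAVS1 (log2FC 1.87, SE 0.36, padj 0.00167). CEP290 intron 12 had 0.246, 0.206 and 0.369 with sgERH and 0, 0.00411 and 0 with sgAAVS1 (padj 0.000296). These did not overlap, and for ASPM the control ratios were above their DMSO values. CEP44 intron 5 had 0.227, 0.135 and 0.167 with sgERH and 0, 0.00889 and 0 with sgAAVS1 (padj 0.000201). With CEP290 intron 12, ASPM introns 8 and 12, CEP192 intron 31 and CNTRL intron 9 it made up the 6 largest rises. In CHX cytoplasm 9 introns were called higher (3.33%, against 0.599% of all introns) and 0 lower (0.300% of all introns). ASPM introns 8, 9, 13, 14 and 15, LRRCC1 introns 12 and 16, CNTRL intron 7 and AKAP9 intron 38 made up the 9. The summed nuclear marker RNAs were 318 to 357 TPM in sgERH CHX cytoplasm and 185 to 203 TPM in sgAAVS1 CHX cytoplasm, and their part was not tested. The call of ASPM intron 8 was lost without sgERH replicate 1 (padj 0.0511) or 3 (padj 0.0658) or sgAAVS1 replicate 1 (padj 0.0638), 2 (padj 0.0542) or 3 (padj 0.0674), that of intron 9 without sgERH replicate 1 (padj 0.198) or sgAAVS1 replicate 3 (padj 0.0593), and that of intron 15 without sgERH replicate 1 (padj 0.0645) or 3 (padj 0.052) or sgAAVS1 replicate 3 (padj 0.0556). AKAP9 intron 38 of 49 had 0.122, 0.116 and 0.0963 with sgERH and 0.0259, 0.0146 and 0.0211 with sgAAVS1 (log2FC 2.59, SE 0.23, padj 5.04e-05).

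The balance of calls in CHX nuclei rested on the scaling. Of the 904 introns 27 were called higher (2.99%, against 0.747% of all introns) and 119 lower (13.2%, against 19.7%), with medians of −0.76 for these genes and −0.96 for all introns. Boundary-spanning reads per 100 spliced reads were 24.5 to 27.1 with sgERH and 38.0 to 39.2 with sgAAVS1. With intron depth scaled to the library median 53 were called higher and 8 lower. Over all 125590 introns tested, that scaling gave 2725 higher and 1667 lower, beside 938 and 24751 unscaled. CEP128, a subdistal appendage gene, held 2 of the 6 largest falls at unscaled depth in these genes. Its intron 21 of 24 (0.0170, 0.0000707 and 0.0130 with sgERH, 0.209, 0.203 and 0.145 with sgAAVS1, padj 0.00983) missed the limit after scaling (padj 0.09). Its intron 5 missed it after scaling (padj 0.209) and in 6 of 6 fits without 1 library. A PCNT intron outside the canonical transcript lost its call in 6 of 6 such fits, and CENPJ intron 1 in 5 of 6. Without sgERH CHX nucleus replicate 2, 69 introns were called lower.

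The genes were on balance relatively higher in the nucleus in either cell population. In DMSO, nucleus over cytoplasm called 15 genes higher and 1 lower in sgERH cells (29.2% and 24.2% of all genes) and 14 higher and 1 lower in sgAAVS1 cells (31.9% and 26.5%). By padj alone 27 were higher and 8 lower in sgERH cells (41.1% and 40.1% of all genes) and 26 higher and 8 lower in sgAAVS1 cells (42.9% and 40.6%). The gene called lower in the nucleus in both was CEP55 (−1.19 in sgERH and −1.31 in sgAAVS1). CEP164 had the largest nuclear excess of the 39 genes, 2.58 in sgERH cells (SE 0.06) and 3.79 in sgAAVS1 cells (SE 0.06), followed in sgAAVS1 cells by CDK5RAP2 (2.28) and PCNT (2.20). The medians were 0.80 in sgERH cells and 0.62 in sgAAVS1 cells, beside 0.02 and 0.05 over all genes. With size factors by relative log expression the medians over all genes moved to 0.16 and 0.18, and those of the listed genes to 0.93 and 0.74. With transcript lengths as an offset, the medians over all genes were 0.04 and 0.08, and those of the listed genes 1.31 and 0.99. Levels in the fractions are relative to the RNA sequenced from each, not to a cell. In sgAAVS1 cells, a second gene was called lower without sgAAVS1 DMSO nucleus replicate 3 or sgAAVS1 DMSO cytoplasm replicate 3.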

How the data were processed

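Polyadenylated RNA of 24 libraries was sequenced as paired-end reads after separation of nuclei and cytoplasm. Per the submitters' processing notes, fastp 0.23.4 was among the tools used. The authors deposited salmon expected counts, effective lengths and TPM per transcript on Ensembl GRCh38. The IRFinder-S tables they deposited give, per intron, intron depth as a coverage signal, spliced-read counts and the IR ratio as a fraction. Whether salmon used strand is not given in the sources used here, so overlapping antisense genes may share counts.

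Transcript counts were summed per gene, rounded to whole numbers and tested in each fraction with edgeR 4.0.16 (limma 3.58.1, R 4.3.3, quasi-likelihood, TMM scaling, filterByExpr with a minimum count of 10) over its 4 groups, and the 12 DMSO libraries entered the comparisons between fractions. Adjustment ran over all genes or introns tested, in 13 gene and 4 intron comparisons. For introns, rounded depth was tested against spliced reads where their mean sum was at least 10 and a group's mean depth at least 1. Coding and intron positions came from the annotation in GRCh38. Fits were tested on simulated data. The alternatives were DESeq2 1.42.0, other size factors, filters and length offsets, stricter intron criteria, a replicate block and leaving out each library.

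Deviations of same-numbered libraries from their group means correlated between sgERH and sgAAVS1 cytoplasm at 0.35, 0.33 and 0.28 in DMSO and 0.27, 0.12 and 0.12 in CHX. Between CHX and DMSO cytoplasm the correlations were −0.13, 0.39 and 0.38 with sgERH and −0.15, −0.32 and 0.02 with sgAAVS1. Values for differently numbered libraries are not given here. The labels call the replicates biological but name no shared culture, so p-values measure the spread between these libraries. Library labels number nucleus and cytoplasm alike within each guide and treatment, but the comparisons between fractions used group means without this pairing. With a block of guide and number, the difference in ERH effect between fractions called 286 of all genes higher and 591 lower, beside 300 and 666. The genes described were those called in each comparison, the duplication and scaffold core (PLK4, STIL, SASS6, CENPJ, PCNT, PCM1), the highest and lowest level, and the introns with the largest called changes. The members and gene lists were chosen with earlier results of these data known.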

Additional observations from a re-analysis of the deposited data

Results flagged for a closer look

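For 6 genes the effect of sgERH differed between conditions by a test of the difference itself. In cytoplasm the effect under CHX minus that under DMSO was 1.19 for CEP250 and −1.1 for CEP295, and in nuclei it was 1.18 for NIN and −1.14 for CEP135. Between fractions in DMSO, the effect in nucleus minus that in cytoplasm was −1.22 for CEP164 and 1.32 for LRRCC1. The part of nuclear RNA in the cytoplasmic libraries was not tested. With 3 libraries per group, no library was examined as an outlier.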

How the results depend on the processing

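Scaling of intron depth turned the balance of higher against lower calls over all introns in each of the 4 comparisons, and over the introns of the listed genes in CHX nuclei. With transcript lengths as an offset, 1 gene was called lower in DMSO nuclei, 0 higher in CHX nuclei, 0 lower in the cytoplasmic CHX difference, and 2 lower in nucleus against cytoplasm in each cell population. The replicate block gave 5 genes called lower in CHX nuclei, as did a block within each treatment. Deviations of same-numbered sgERH and sgAAVS1 nuclear libraries correlated at −0.05, 0.09 and 0.15 in DMSO. Whether an equal number marks a shared culture is not given in the sources used here. For introns in DMSO cytoplasm, 11 were called higher without warned introns and 12 with the 6 libraries alone, and lower calls were 0 without warned introns, 4 after scaling, 0 with 6 libraries, 2 with the replicate block and 0 with DESeq2. In DMSO nuclei, 21 were called higher without warned introns and 23 with DESeq2, and lower calls were 8 at a mean IR ratio of 0.1, 9 without warned introns, 6 after scaling, 22 with 6 libraries and 9 with DESeq2. In CHX nuclei, 14 were called higher without warned introns and 53 after scaling, and 57, 8 and 78 lower without warned introns, after scaling and with DESeq2. Scaling raised the share of higher calls among all called introns to 66.9% in DMSO nuclei, against 25.9% unscaled, and to 62% in CHX nuclei, against 3.65%, and lowered it to 39.5% in DMSO cytoplasm, against 79.1%, and to 42.2% in CHX cytoplasm, against 66.6%. The causes were not tested.

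Leaving out 1 library gave 18 to 23 higher and 5 to 9 lower introns in DMSO nuclei, 14 to 17 higher and 0 to 2 lower in DMSO cytoplasm, 20 to 32 higher and 69 to 130 lower in CHX nuclei and 6 to 8 higher in CHX cytoplasm. For genes called lower it gave 2 to 3 in DMSO nuclei, 1 to 2 in DMSO cytoplasm, 2 to 5 in CHX nuclei, 1 to 2 in CHX cytoplasm, 0 to 2 in the cytoplasmic CHX difference and 1 to 2 in nucleus against cytoplasm of sgAAVS1 cells. In sgERH cells, CHX called 2 to 4 genes higher in each fraction. Spliced reads over single introns often numbered under 100, which limits ratios near 0.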
